A study of Mus musculus with 11 samples.

Results

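The IL-31 receptor chains Il31ra and Osmr, the shared signalling chain Il6st, the kinase Jak1, the leukotriene receptor Cysltr2 and the neuropeptides Nppb, Sst and Nts were followed in trigeminal neurons of mice with and without an oral tumour. These 8 genes, out of 55401 listed, were taken by name, and they were chosen from their measured MOC1 and sham values in these same libraries. Their differences between MOC1 and sham are therefore a description: calls from the fit over all genes are printed beside them, and nothing is read from those calls. All 8 passed the filter on low counts, which left 16817 genes. In females Il31ra, Cysltr2, Nppb, Sst and Nts were higher in every MOC1 library than in every sham library. In males the fitted gap was smaller for Il31ra, Cysltr2 and Nppb, and for Sst and Nts it was below 0 with standard errors larger than its size. The test of whether this gap differed between the sexes called 0 of the 8 genes, and 0 of all 16817 genes tested. Osmr was higher by a similar amount in both sexes, and Il6st differed little between the arms.

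IL-31 is an itch cytokine that acts on sensory neurons through a receptor made of Il31ra and Osmr, while Osmr with Il6st binds oncostatin M. Both receptors signal through Janus kinases, among them Jak1, and STAT transcription factors. In mice, single-cell studies of sensory ganglia place Il31ra, Osmr, Cysltr2, Nppb, Sst and Nts in one class of unmyelinated itch neurons, which use the natriuretic peptide encoded by Nppb as a transmitter to the spinal cord, whereas Il6st and Jak1 are used by many cell types.

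The study took both trigeminal ganglia, the ganglia of the face and mouth, and sorted neurons that carried the retrograde tracer DiI. The libraries hold pooled RNA of the sorted material, in which glial markers were also found (below), and not RNA of single cells. Mice of the tumour arm bore MOC1, a cell line from a mouse oral carcinoma, and those of the other arm had a sham procedure. The tumour arm held 3 libraries of females and 3 of males, and the sham arm 3 of females and 2 of males. Strain, age, genotype and the time after tumour injection are not given in the sources used here, nor is it stated that each library is a separate animal, so p-values measure the spread between libraries, which may be technical.

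Libraries held 10757426 to 16703797 counts in genes, with 14408515 ± 1916884 in MOC1 libraries (SD, n = 6) and 16369547 ± 497609 in sham libraries (SD, n = 5). Xist and Ddx3y matched the labelled sex in every library. Summed marker levels of satellite glia, which surround these cell bodies, lay between 2655 and 4552 CPM (counts scaled to library size) in MOC1 libraries, against 6623 to 8320 CPM in sham libraries, and 16 pan-neuronal genes summed to between 10328 and 10877 CPM in MOC1 libraries, against 7812 to 9575 CPM in sham libraries. Of the glial list, edgeR called 7 of 9 genes lower in MOC1 libraries and 0 higher, at an adjusted p under 0.05. Of the pan-neuronal list it called 9 of 16 higher and 0 lower. Over all genes 2.34% were called higher and 4.28% lower. The T cell markers Cd3e, Cd3g and Cd8a were at 0 in every library, as were 4 of 5 mast cell markers and the squamous markers Krt5, Krt6a and Krt8. Macrophage markers summed to 7.62 to 25.0 CPM in MOC1 libraries and 12.6 to 33.8 CPM in sham libraries. Endothelial and mural markers reached 1300 CPM in sham female 1, against 108 to 256 CPM in the other libraries. MOC1 female 3 and MOC1 male 2 had the fewest genes detected, 14180 and 15327, against 16043 to 19078 in the other libraries. These 2 and sham female 1 are called the 3 libraries that stand apart, and results are also given without them.

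On GRCm38, Il31ra lies on the minus strand of chromosome 13 from 112519898 to 112594360 and its neighbour Il6st on the plus strand from 112464070 to 112510086, 9811 bases away. The overlapping gene model Gm3226 on the same strand took 0 to 3 counts per library. Osmr is on chromosome 15 at 6813577 to 6874969 on the minus strand, Cysltr2 on chromosome 14 at 73025603 to 73049114, Jak1 on chromosome 4 at 101152367 to 101265282, Nppb on chromosome 4 at 147985788 to 147987205 beside Nppa, Sst on chromosome 16 at 23889573 to 23890958 and Nts on chromosome 10 at 102481756 to 102490486. Exons of Jak1 overlap those of Raver2 on the opposite strand, and counting was strand-specific.

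The 250 bases before the RefSeq start (GRCm38.p6) are shown for the receptor pair Il31ra and Osmr, and for the peptides Nppb and Sst of the same neuron class. Letters run 5′ to 3′ on the strand of the gene, and capitals mark a STAT motif (TTCNNNGAA) or a full cyclic AMP response element (TGACGTCA). The windows are chr13:112580663-112580912 for Il31ra, chr15:6874314-6874563 for Osmr and chr16:23890845-23891094 for Sst on the minus strand, and chr4:147985650-147985899 for Nppb on the plus strand. For these genes the RefSeq start lies inside the gene span of the deposited annotation, so a longer transcript can start upstream of it.
Il31ra: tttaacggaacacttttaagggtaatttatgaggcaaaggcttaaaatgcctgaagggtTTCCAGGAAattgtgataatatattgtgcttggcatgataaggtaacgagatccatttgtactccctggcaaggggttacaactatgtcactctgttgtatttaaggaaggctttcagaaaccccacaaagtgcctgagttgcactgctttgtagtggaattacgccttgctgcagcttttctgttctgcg
Osmr: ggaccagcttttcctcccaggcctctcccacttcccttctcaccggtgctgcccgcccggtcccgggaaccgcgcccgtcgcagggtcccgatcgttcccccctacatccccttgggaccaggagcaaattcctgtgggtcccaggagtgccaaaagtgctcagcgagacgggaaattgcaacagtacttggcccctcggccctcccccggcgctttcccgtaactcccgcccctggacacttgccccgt
Nppb: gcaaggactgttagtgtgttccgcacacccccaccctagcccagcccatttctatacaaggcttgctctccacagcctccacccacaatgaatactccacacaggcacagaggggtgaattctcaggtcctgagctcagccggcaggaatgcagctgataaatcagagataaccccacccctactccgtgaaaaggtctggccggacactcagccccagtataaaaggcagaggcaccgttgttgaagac
Sst: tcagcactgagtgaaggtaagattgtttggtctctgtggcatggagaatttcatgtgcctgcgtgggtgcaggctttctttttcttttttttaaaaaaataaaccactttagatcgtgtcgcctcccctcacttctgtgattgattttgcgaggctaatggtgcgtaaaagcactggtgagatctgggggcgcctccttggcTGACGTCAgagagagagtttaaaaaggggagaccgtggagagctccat

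Of the 8 windows, the Il31ra window alone held the STAT motif, which starts 191 bases before the RefSeq start. That motif, searched on both strands, is found in 7.02% of 32851 promoters of this length. The full cyclic AMP response element was found in Sst, 48 bases before the start, and in Jak1, 101 bases before, against 1.55% of all promoters. Its shorter core TGACG, which the full element contains, was found in Jak1, Nts and Sst, against 17.8% of all. The RUNX motif TGTGGT was in no member window and in 14.0% of all promoters. A TATA motif (TATAAA on the gene strand) stood 31 bases before the start of Nppb, against 7.59% of all. These matches describe letters in a window and not bound sites.

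Il31ra, the chain that gives the receptor its specificity for IL-31, had 47.7, 64.5 and 40.4 CPM in MOC1 females and 73.5, 72.1 and 74.2 CPM in MOC1 males, against 15.8, 7.88 and 13.2 CPM in sham females and 46.0 and 52.9 CPM in sham males. Every MOC1 female lay above every sham female and every MOC1 male above both sham males, while sham males overlapped MOC1 females. The log2 change was 1.35 ± 0.24 (SE) over both sexes, 2.05 ± 0.23 in females and 0.57 ± 0.25 in males, which is 4.14-fold and 1.48-fold. With no sex term the change was 1.19 and its call was lost.

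Osmr, the second chain of the IL-31 receptor and part of an oncostatin M receptor, had 73.8, 79.2 and 77.4 CPM in MOC1 females and 126, 111 and 118 CPM in MOC1 males, against 61.5, 35.8 and 38.7 CPM in sham females and 80.2 and 57.3 CPM in sham males. Within each sex all MOC1 libraries lay above all sham libraries. The log2 change was 0.76 ± 0.18 (SE) in females and 0.78 ± 0.21 in males.

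Il6st, the gp130 chain shared by receptors of the IL-6 family, had 991, 1038 and 1085 CPM in MOC1 females and 1104, 868 and 1094 CPM in MOC1 males, against 1147, 1023 and 965 CPM in sham females and 1182 and 1216 CPM in sham males. The arms overlapped, and the log2 change was -0.11 ± 0.08 (SE). Jak1, a kinase bound to these receptor chains, had 462, 549 and 440 CPM in MOC1 females and 510, 546 and 496 CPM in MOC1 males, against 354, 353 and 337 CPM in sham females and 472 and 448 CPM in sham males. The 3 sham females were close together below all other libraries, and the log2 change was 0.48 ± 0.09 in females and 0.17 ± 0.11 in males.

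Cysltr2, a receptor for cysteinyl leukotrienes, had 10.6, 22.6 and 16.2 CPM in MOC1 females and 19.99, 22.0 and 18.6 CPM in MOC1 males, against 3.55, 4.33 and 7.97 CPM in sham females and 18.2 and 16.2 CPM in sham males. Sham females again lay below all other libraries. The log2 change was 1.64 ± 0.36 (SE) in females and 0.23 ± 0.39 in males.

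Nppb, which encodes the natriuretic peptide that marks the class, had 4.54, 6.32 and 7.43 CPM in MOC1 females and 7.39, 13.2 and 7.71 CPM in MOC1 males, against 1.10, 1.86 and 1.42 CPM in sham females and 9.22 and 8.62 CPM in sham males. These levels rest on 49 to 201 counts in MOC1 libraries and 18 to 145 counts in sham libraries. Sham females lay below every other library, and sham males lay inside the range of MOC1 males. The log2 change was 2.06 ± 0.51 (SE) in females and 0.08 ± 0.54 in males.

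Sst, which encodes somatostatin, had 2.41, 1.60 and 3.82 CPM in MOC1 females and 5.01, 10.4 and 3.83 CPM in MOC1 males, against 0.979, 0.361 and 1.24 CPM in sham females and 9.41 and 5.94 CPM in sham males. Its counts ran from 24 to 159 in MOC1 libraries and from 6 to 148 in sham libraries, the lowest of the 8 genes. Sham females were again below every other library and sham males within the range of MOC1 males, with log2 changes of 1.59 ± 0.74 (SE) in females and -0.26 ± 0.77 in males.

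Nts, which encodes neurotensin, had 10.4, 8.85 and 11.4 CPM in MOC1 females and 8.55, 26.1 and 10.2 CPM in MOC1 males, against 1.22, 2.41 and 3.13 CPM in sham females and 34.6 and 8.08 CPM in sham males. Single male libraries, MOC1 male 2 and sham male 1, were far above the others of their arm. The log2 change was 2.17 ± 0.55 (SE) in females and -0.51 ± 0.56 in males, and without sham male 1 the male value was 0.89.

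**Figure D1:**
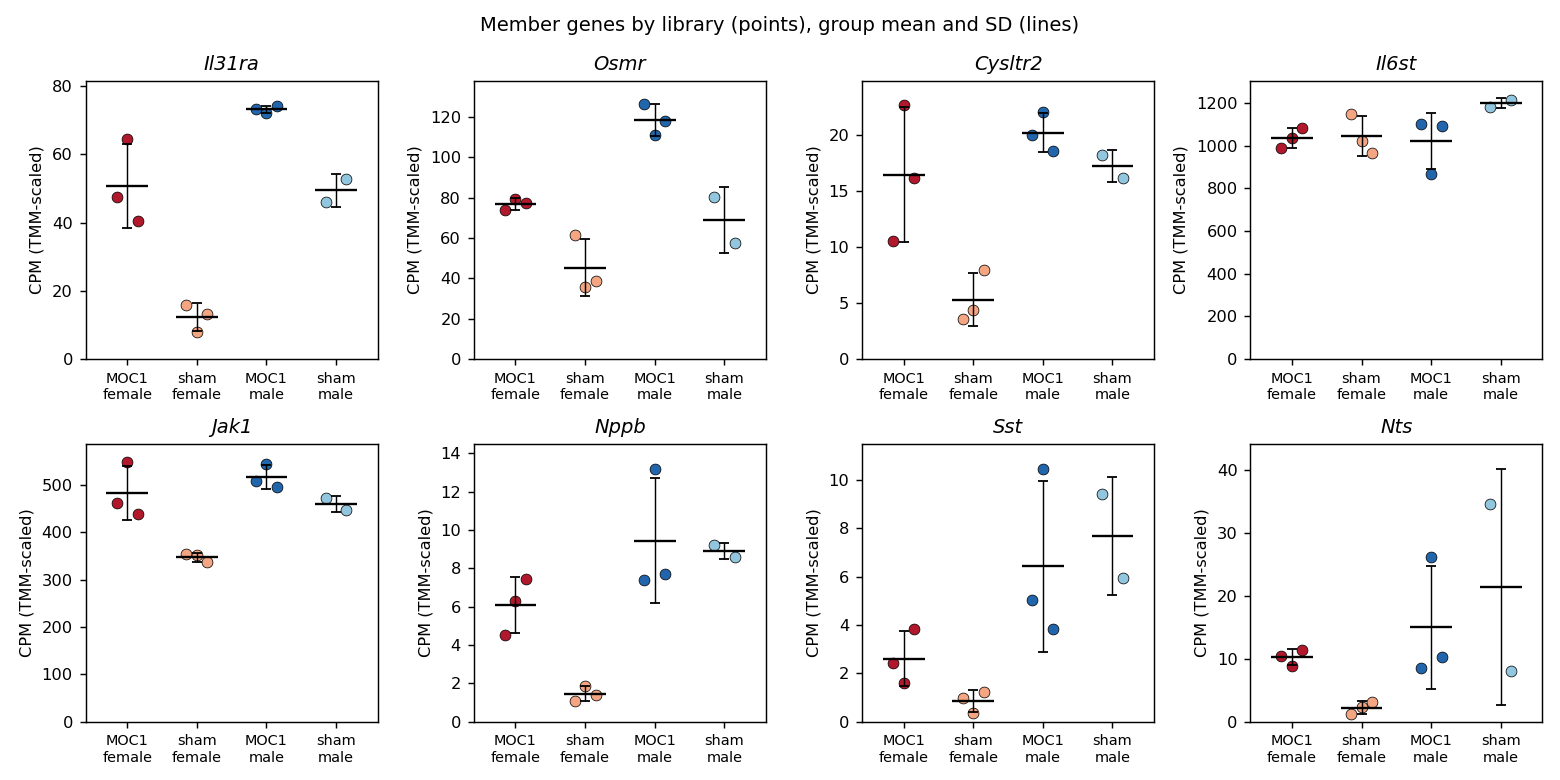
Level of each of the 8 genes (CPM after TMM scaling, linear axis from 0) in every library, with MOC1 left of sham within each sex; points are libraries, the long line is the group mean and the bar its SD. The 3 sham females are lowest for every gene but Il6st and Osmr, for example at 7.88 to 15.8 CPM of Il31ra. The share of all genes with this order was not computed, and these libraries entered the choice of the members.

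In females all MOC1 libraries lay above all sham libraries for 7 of the 8 genes, Il6st being the exception; 8.87% of all genes did so. Over both sexes the arms were separate in this way for 0 of 8 genes, against 2.15% of all genes. By the quasi-likelihood test of edgeR with adjustment over all genes at 0.05, Il31ra, Osmr and Jak1 were called higher in MOC1 libraries and 0 members lower, where 2.34% of all genes were called higher and 4.28% lower. Within females 6 members were called higher, all but Sst and Il6st, where 1.33% of all genes were called higher and 3.15% lower. Within males edgeR called 0 members, DESeq2 called Osmr and 3 members had an unadjusted p under 0.05, where edgeR called 0.166% of all genes higher and 1.09% lower. Because the members were chosen on this contrast, nothing is read from these counts. The count within females fell to 1 without MOC1 female 2 and to 2 without sham female 2, Il31ra being called in both; the genes called higher over all genes fell as well, to 63 and 109, against 224 with all libraries. The median log2 change of the members was 0.82, beside -0.03 for all genes. In bulk libraries more cells of the class and more RNA per cell cannot be told apart.

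**Figure D2:**
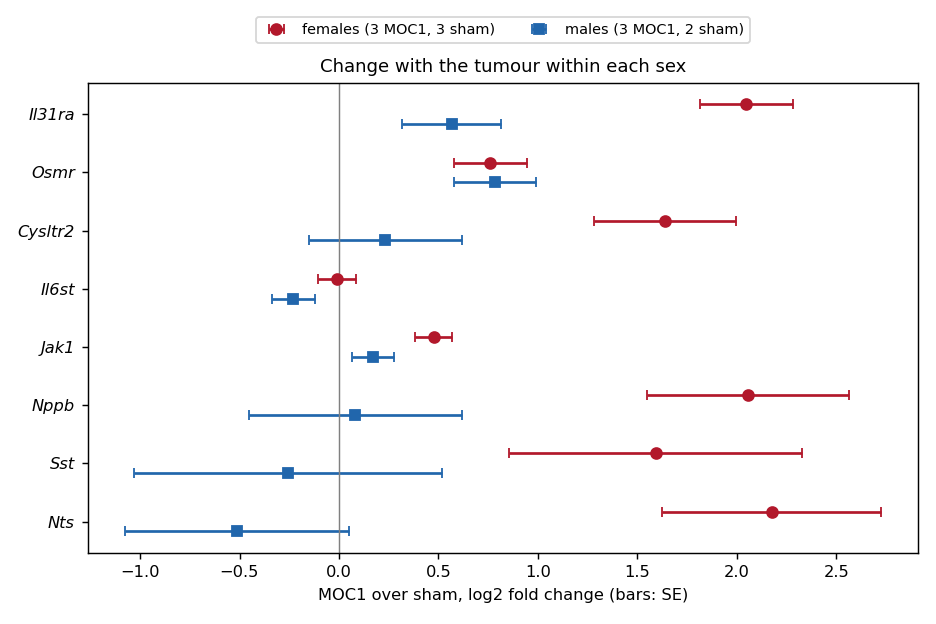
Log2 fold change of MOC1 over sham within females (circles) and within males (squares) from a fit of the 4 groups; bars are 1 SE. The female value exceeds the male value for Il31ra (2.05 and 0.57), Cysltr2, Nppb, Sst and Nts, while both lie together for Osmr (0.76 and 0.78).

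Whether the change differed between the sexes was tested by an interaction term, a contrast other than the one the members were chosen on. It uses the same libraries, the low sham females among them, so its p-values are not independent of the choice. By edgeR 0 of 8 members passed, and 0% of all genes were called in the higher and 0% in the lower direction; DESeq2 also called 0 genes. An unadjusted p under 0.05 was found for 5 of 8 members, against 4.21% of all genes. The female change exceeded the male change of Il31ra by 1.48 ± 0.33 on the log2 scale (SE, unadjusted p = 3.32e-04, edgeR adjusted p = 0.913). For Nts the excess was 2.69 ± 0.78 (unadjusted p = 0.00293 by edgeR, 1.29 without sham male 1), for Nppb 1.97 ± 0.72, for Cysltr2 1.41 ± 0.52 and for Jak1 0.31 ± 0.14. Sst stood at 1.85 ± 1.06 and Il6st at 0.22 ± 0.15. The value of Osmr was -0.02 ± 0.27, which leaves room for a difference in either direction. Without the 3 libraries that stand apart, Il31ra passed, with 1.83 ± 0.32 and an edgeR adjusted p of 0.0421. That removal was added after the data had been seen. It took out the MOC1 female lowest in Il31ra (40.4 CPM) and the sham female highest in it (15.8 CPM), which widens the female gap. In the 11 fits that left out 1 library, Il31ra passed in 0, at 1.24 to 1.70.

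The additive difference between the sexes is a further contrast other than the one the members were chosen on. The groups are of unequal size and the low sham females enter it too, so it is not independent of the choice either. All 8 members had lower fitted levels in females, yet edgeR called 0 of them, where 0.0178% of all genes were called higher and 0.0238% lower in females. DESeq2 called Il31ra and Osmr, among 21 genes in all. An unadjusted p under 0.05 was found for 7 of 8 members, against 4.29% of all genes. The female minus male log2 difference was -1.19 ± 0.24 for Il31ra (SE, edgeR adjusted p = 0.139) and -0.61 ± 0.13 for Osmr (edgeR adjusted p = 0.243). It was -2.13 ± 0.56 for Sst, -1.76 ± 0.51 for Nts, -1.51 ± 0.42 for Nppb, -0.92 ± 0.30 for Cysltr2, -0.23 ± 0.08 for Jak1 and -0.08 ± 0.08 for Il6st.

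Sex differences within each arm were computed after these values had been seen, and those in sham share the sham libraries with the contrast that chose the members, so they too are descriptive. Within sham the female minus male log2 difference was -2.01 ± 0.25 (SE) for Il31ra, -3.24 ± 0.59 for Nts, -3.15 ± 0.81 for Sst, -2.60 ± 0.55 for Nppb, -1.70 ± 0.38 for Cysltr2, -0.60 ± 0.20 for Osmr, -0.40 ± 0.10 for Jak1 and -0.20 ± 0.11 for Il6st. Within MOC1 the same difference was -0.53 ± 0.22 for Il31ra, -1.30 ± 0.71 for Sst, -0.63 ± 0.48 for Nppb, -0.55 ± 0.51 for Nts, -0.29 ± 0.34 for Cysltr2, -0.62 ± 0.18 for Osmr, -0.10 ± 0.09 for Jak1 and 0.02 ± 0.10 for Il6st. Osmr thus differed by a like amount in both arms, and Il31ra and the peptides had smaller differences in MOC1 than in sham, a contrast whose test is the interaction above. Within sham edgeR called 8 genes, 0.0178% of all genes higher and 0.0297% lower in females; of the members Il31ra was called, beside the sex-linked Xist, Ddx3y, Uty, Kdm5d and Eif2s3y and the genes B2m and Hspa1a. Nts was -1.84 without sham male 1, one of only 2 sham male libraries.

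**Figure D3:**
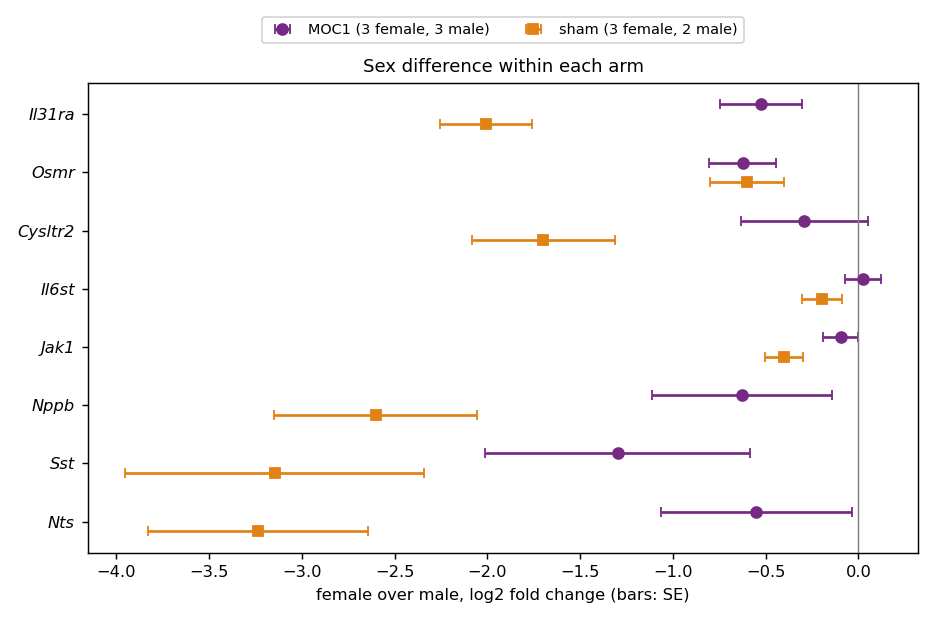
Log2 fold change of female over male within MOC1 (circles) and within sham (squares); bars are 1 SE. The sham values lie farther below 0 than the MOC1 values for Il31ra, Cysltr2, Nppb, Sst and Nts, and both coincide for Osmr.

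Markers of other cells were set beside these differences, with their part in them not tested. Satellite glia summed to 6623 to 8320 CPM in sham females and 7637 to 7700 CPM in sham males, and the median female minus male log2 difference of the 9 glial genes within sham was 0.04. Pan-neuronal genes summed to 7812 to 9575 CPM in sham females and 8858 to 9523 CPM in sham males, with a median difference of -0.07. Other markers of nonpeptidergic neurons, such as the ATP receptor P2rx3 and the receptor Mrgprd of a neighbouring class, summed to 3984 to 4377 CPM in sham females and 4497 to 4645 CPM in sham males, so that sham females were slightly lower here too. Their median log2 difference between sham females and sham males was -0.11, and edgeR called 0 of these 11 genes, with 0 at an unadjusted p under 0.05. Between MOC1 and sham their median log2 change was 0.16, with P2rx3 at 0.25 ± 0.08 and Mrgprd at 0.16 ± 0.09 (SE); edgeR called 0 of 11, DESeq2 called P2rx3, and 5 had an unadjusted p under 0.05. Htr1f, a serotonin receptor reported in the Nppb class in mice, was picked out after its values were seen: it averaged 7.64 ± 4.37 CPM in the 3 MOC1 females and 1.72 ± 1.39 CPM in the 3 sham females, 8.87 ± 3.90 CPM in the 3 MOC1 males and 7.70 ± 2.32 CPM in the 2 sham males (SD), and edgeR did not call it. It is 1 of 12 tested other itch receptors and transducers, whose median log2 change was 0.14 within females and -0.08 within males. Within each sex edgeR called Trpa1 alone of these 12, so nothing is read from Htr1f about the class. Of 6 markers of peptidergic neurons edgeR called Calca higher in MOC1 and 0 lower, with a median log2 change of 0.30. DESeq2 called Tac1, Calca and Adcyap1 higher, and by edgeR 5 had an unadjusted p under 0.05. Of 10 Schwann cell genes 5 were called lower and 0 higher. Fibroblast markers summed to 59.8 to 71.8 CPM in MOC1 libraries and 90.2 to 179 CPM in sham libraries, without overlap, and of 6 tested Col1a2 was called lower. Of 9 endothelial and mural genes Cspg4 and Cldn5 were called lower in MOC1 and 0 higher, with a median log2 change of -1.47. Their sums were 108 to 202 CPM in MOC1 libraries, 133 to 1299.9 CPM in sham females and 222 to 256 CPM in sham males. The part of these cell types in the members' values was not tested.

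**Figure D4:**
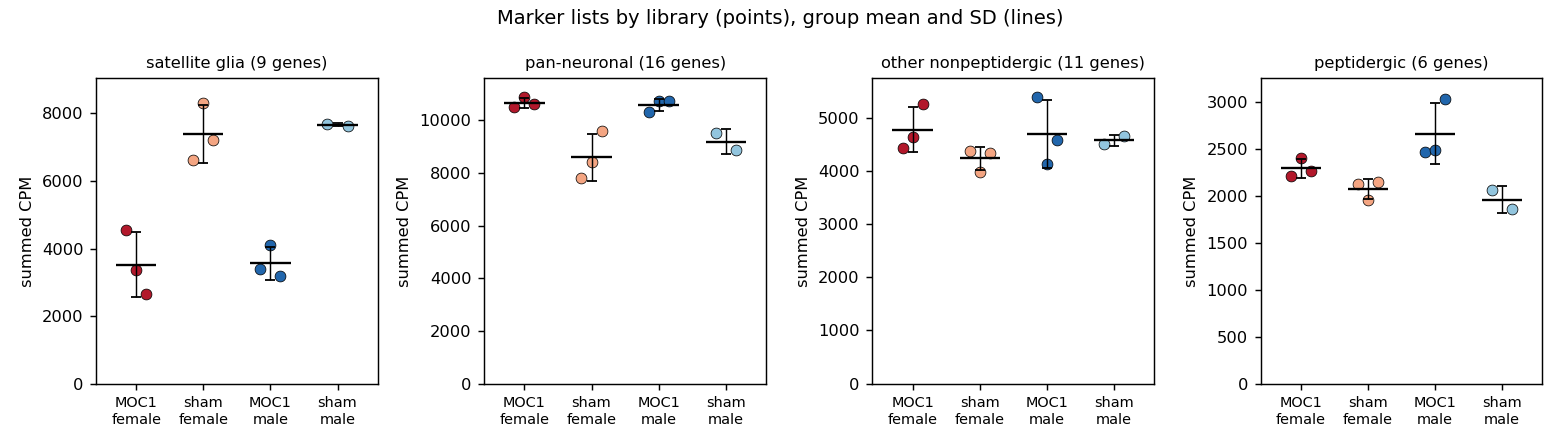
Summed CPM of 4 marker lists in every library, with MOC1 left of sham within each sex; points are libraries, the long line is the group mean and the bar its SD. Satellite glia separate the arms (2655 to 4552 CPM in MOC1, 6623 to 8320 CPM in sham) and not the sexes, while the nonpeptidergic list sums to 3984 to 4377 CPM in sham females and 4497 to 4645 CPM in sham males.

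Since glial and neuronal shares differed between the arms, the changes were also computed with libraries scaled to each list. Scaled to pan-neuronal genes, the median of all genes moved to -0.32, and log2 changes were 1.06 ± 0.24 (SE) for Il31ra, 0.47 ± 0.15 for Osmr, 0.05 ± 0.08 for Jak1 and -0.40 ± 0.09 for Il6st, so that Jak1 was no longer called and Il6st was called lower. Scaled to satellite glia, the median of all genes moved to 1.06. There 10012 of the 16817 genes tested were called higher, all 8 members among them. Il31ra stood at 2.43 ± 0.26 and Il6st, whose sign turned, at 1.00 ± 0.18. A change of scaling shifts the genes together, so a call under them is relative to the list and not to the other genes. The part of cell composition in the members' differences was not tested.

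**Figure D5:**
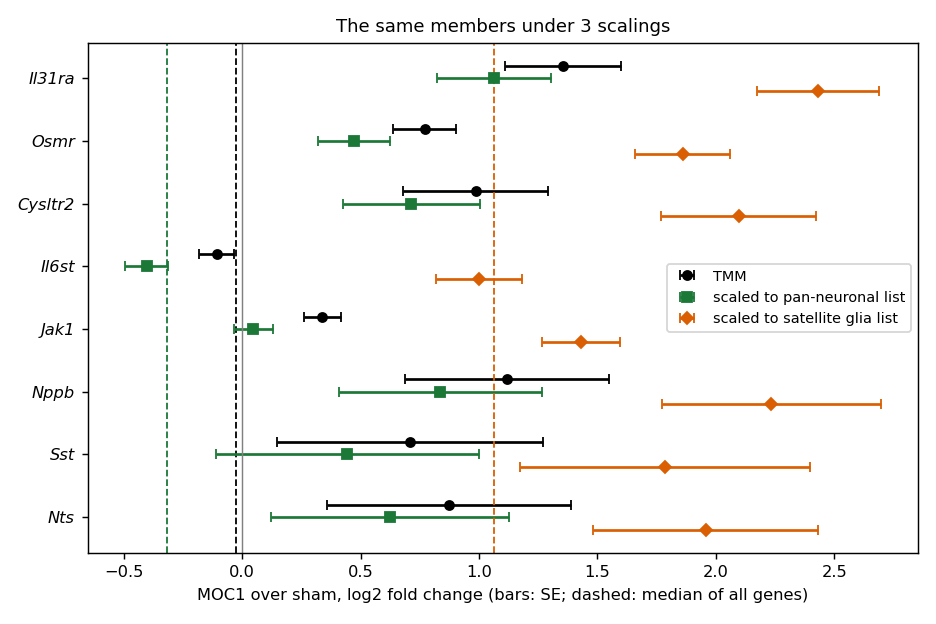
Log2 fold change of MOC1 over sham for the 8 genes under TMM scaling (circles), scaling to the pan-neuronal list (squares) and scaling to the satellite glia list (diamonds); bars are 1 SE and dashed lines mark the median of all genes under each scaling. The dashed lines stand at -0.03, -0.32 and 1.06, and the values of each gene move with them.

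Per kilobase of exon, Il6st was the most abundant member, at 92.8 ± 8.08 CPM per kilobase over the 6 MOC1 libraries and 99.7 ± 9.70 over the 5 sham libraries (SD). Jak1 followed at 69.2 ± 6.08 in MOC1 and 54.3 ± 8.62 in sham. Il31ra stood at 10.9 ± 2.57 CPM per kilobase in MOC1 and 4.79 ± 3.65 in sham, and Osmr at 8.05 ± 1.93 in MOC1 and 4.52 ± 1.499 in sham. Nts, Nppb, Cysltr2 and Sst averaged between 6.27 and 10.1 in MOC1 and between 3.50 and 7.92 in sham. Il31ra was above Osmr and above Cysltr2 in each of the 6 MOC1 libraries. In sham females Osmr, at 3.74 ± 1.16, was above Il31ra, at 2.17 ± 0.71 (SD, n = 3). In sham males Il31ra, at 8.72 ± 0.85, was above Osmr, at 5.68 ± 1.34 (SD, n = 2). The length used was that of all annotated exons of a gene together, 5673 bases for Il31ra and 12113 for Osmr. Before division by length Osmr was above Il31ra in every library, with means of 97.6 and 62.1 CPM in MOC1 and 54.7 and 27.2 CPM in sham. The order of this pair per kilobase therefore depends on the length used.

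The remaining genes of the pathway were described from lists, whose medians are set beside the median log2 change of -0.03 over all genes. The list medians were -0.16 for IL-6 family receptor subunits, -0.16 for their ligands, -0.06 for Janus kinases and STATs, -0.06 for feedback genes, 0.15 for other itch cytokine receptors, 0.07 for other itch receptors, 0.19 for leukotriene genes, 0.23 for natriuretic genes and -0.57 for somatostatin and neurotensin receptors. All of these move with the scaling, as does the median of all genes, which was -0.32 scaled to pan-neuronal genes and 1.06 scaled to satellite glia. Of 4 measured receptor subunits of the IL-6 family edgeR called 0, with 1 at an unadjusted p under 0.05, and DESeq2 called Cntfr, the ciliary neurotrophic factor receptor, lower. Lifr, which pairs with Il6st for leukaemia inhibitory factor, averaged 1132 CPM in MOC1 libraries, with an SD of 105, and 1041 CPM in sham libraries, with an SD of 139, with a log2 change of 0.12 ± 0.09, and Cntfr stood at -0.50 ± 0.16 (SE). Of 6 measured ligands edgeR and DESeq2 called 0, and 0 had an unadjusted p under 0.05. The itch cytokine Il31 had 0 counts in every library, which allows a level of up to 0.180 to 0.279 CPM by counting error alone, and Osm reached at most 0.265 CPM in MOC1 libraries and 1.98 CPM in sham libraries.

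Among 9 Janus kinases and STATs, Stat3, the main STAT below Il6st, was higher, at 592 ± 54.2 CPM over the 6 MOC1 libraries and 478 ± 30.7 CPM over the 5 sham libraries (SD), a log2 change of 0.30 ± 0.07 (edgeR adjusted p = 0.0151). It was 0.01 ± 0.09 when scaled to pan-neuronal genes, where the median of all genes was -0.32. Scaled to satellite glia, Stat3 stood at 1.42 ± 0.18, where that median was 1.06. Among 16 feedback genes Socs3, a STAT3-induced inhibitor of Il6st signalling, was lower, at 97.4 ± 15.8 CPM over the 6 MOC1 libraries and 227 ± 50.1 CPM over the 5 sham libraries (SD), a log2 change of -1.20 ± 0.13 (edgeR adjusted p = 1.55e-05), and it was called lower within each sex. Scaled to satellite glia, whose markers were lower by a median of -1.14, Socs3 stood at -0.09 ± 0.18, where the median of all genes was 1.06, and their part in its decrease was not tested. Scaled to pan-neuronal genes, Socs3 stood at -1.49 ± 0.15. The other 8 and 15 genes of these lists did not pass.

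Of 7 other cytokine receptors linked to itch, Il1rap, the shared partner of IL-1 family receptors, was lower at -1.36 ± 0.30 (edgeR adjusted p = 0.00711; -0.32 ± 0.33 and not called when scaled to satellite glia, where the median of all genes was 1.06). Il4ra, a receptor chain for IL-4 and IL-13, was at 0.15 ± 0.15. Of 12 other itch receptors and transducers, Trpa1, the irritant channel, was higher by 0.84 ± 0.10 (edgeR adjusted p = 1.82e-05), and Trpv1, the capsaicin receptor, by 0.32 ± 0.08 (edgeR adjusted p = 0.0195; 0.03 ± 0.10 and not called when scaled to pan-neuronal genes, where the median of all genes was -0.32). Leukotriene genes were scarce: 2 of 9 passed the filter, and edgeR and DESeq2 called 0, with 0 at an unadjusted p under 0.05. The leukotriene A4 hydrolase Lta4h was at -0.01 ± 0.14. Of 5 measured natriuretic genes edgeR and DESeq2 called 0, with 1 at an unadjusted p under 0.05, and Npr2, a natriuretic peptide receptor, was at 0.09 ± 0.10. Of 6 measured receptors for somatostatin and neurotensin, Sort1, the sorting receptor sortilin that binds neurotensin, was lower at -0.48 ± 0.09 (edgeR adjusted p = 0.00269). It stood at 0.60 ± 0.16 when scaled to satellite glia, where the median of all genes was 1.06. Scaled to pan-neuronal genes, Sort1 stood at -0.78 ± 0.11 and Il1rap at -1.64 ± 0.30. Trpv1 was at 1.42 ± 0.17 when scaled to satellite glia. Trpa1 was at 0.54 ± 0.12 with pan-neuronal and 1.93 ± 0.18 with satellite glia scaling.

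Across the 11 libraries, log2 CPM of Il31ra had the highest Pearson correlation with that of Jak1 among 12952 genes, at 0.94, and Cysltr2 ranked 9th at 0.91; this ranking was added after the values were seen, and it shares the differences between the groups. Cysltr2 and Nppb were at 0.92, Nppb and Nts at 0.91, and pairs with Il6st between -0.10 and 0.10. After the mean of each group was subtracted, pairs of members ran from -0.73 (Il6st and Nts) to 0.59 (Nppb and Nts), and Il31ra and Osmr were at 0.50. On that scale the genes most like Il31ra were Bcl6b (0.94), Arl1, Lemd3, Akr1a1 and Palmd (0.92), and those most like Osmr were Msrb3 (0.94), Psmg3, Accsl, Myof and Tgm2 (0.91), none of them a member. These are the highest of 12952 correlations over only 11 libraries, and how high chance alone would reach was not tested. Before the group means were subtracted, they ran from -0.21 (Bcl6b) to 0.55 (Lemd3) for Il31ra. For Osmr they ran from -0.03 (Tgm2) to 0.78 (Accsl). Nothing is read from these lists about shared expression.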

How the data were processed

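Poly(A) RNA of sorted neurons was read from one end, per the labels' protocols. The authors deposited strand-specific STAR counts per gene, not normalized, per the file headers. Trimmomatic 0.35, STAR 2.7.1a, RSEM and GRCm38 (mm10) are named, per the submitters' processing notes. Which gene annotation was used is not stated in the sources used here. The 4 rows that name no gene held 18.7% to 21.5% of counts and were left out. Of 55401 identifiers, 54349 had the same positions in GENCODE M21.

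The counts went through edgeR 4.0.16 in R 4.3.3: filterByExpr on 4 groups, TMM, quasi-likelihood F tests, Benjamini-Hochberg adjustment over all genes and a threshold of 0.05. MOC1 against sham and female against male came from an additive fit, the other contrasts from a 4-group fit. SE is the size of the log2 change over the square root of F. Alternatives were DESeq2 1.42.0, other scalings and filters, the block, no sex term and left-out libraries. The steps were tested on simulated data. Correlations use log2 CPM with a prior count of 2.

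The members and lists were chosen with earlier results of these data known. Named were all members, up to 4 called genes per list and direction or else the 2 of highest level, and the 5 genes most like Il31ra and Osmr. Htr1f was named outside this rule, after its values had been seen. No 2 libraries of a group agreed within sampling noise (chi-square per degree of freedom 13.9 to 42.4).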

Additional observations from a re-analysis of the deposited data

Results flagged for a closer look

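Nppb reached 13.2 CPM in MOC1 male 2, where the nearest MOC1 library had 7.71 CPM, and it lay far from the other MOC1 libraries relative to their range. Nts stood out in the same library, at 26.1 CPM against 11.4 CPM in the nearest MOC1 library. In sham male 1 Nts reached 34.6 CPM, against 8.08 CPM in the nearest sham library. Each arm was taken with both sexes together, 16 groups were examined, and chance flags about 1 in 20. MOC1 male 2 is one of the 3 libraries that stand apart by genes detected or endothelial markers.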

How the results depend on the processing

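For MOC1 against sham, Il31ra, Osmr and Jak1 were called in each of the 11 fits that left out 1 library; 3 to 5 members were called higher there, 5 without sham male 1, which added Cysltr2 and Nts (1.70). Genes called higher numbered 394 with edgeR and 648 with DESeq2, 29 with pan-neuronal and 10012 with satellite glia scaling, and 250 to 427 with a library left out. Genes called lower numbered 719, with 2437, 54 and 559 to 740 under the last 3 of these. Pan-neuronal scaling called 1 member lower (Il6st), and satellite glia scaling called 8 higher. With the replicate block the same 3 members were called and Il31ra stood at 1.44. After the mean of each group was subtracted, same-numbered libraries correlated at -0.04 to 0.04. With so few libraries per group, that cannot tell whether libraries of the same number were handled together. Within females 1 to 6 members were called with a library left out. Pan-neuronal scaling called 4 members there (Il31ra, Cysltr2, Nppb and Nts, without Osmr and Jak1), where 12 genes were called higher in all. Satellite glia scaling called 8 members within females, where 8401 genes were called higher. Within males 1 was called by DESeq2 and without the 3 libraries that stand apart (Osmr), 5 with satellite glia scaling and 0 to 1 with a library left out. For female against male DESeq2 called 2 lower, 1 passed without the 3 libraries and 0 to 1 with a library left out. For the interaction 1 passed without the 3 libraries and 0 with a library left out. For sham females against sham males DESeq2 called 4 lower, satellite glia scaling 2, the fit without the 3 libraries 3, and 1 to 2 were called with a library left out.

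Signs turned for Il6st with satellite glia scaling, where the median of all genes was 1.06, to 1.00 over both sexes, 1.09 in females and 0.89 in males, and in females to 0.032 without the 3 libraries and to between -0.063 and 0.065 with a library left out. In males pan-neuronal scaling gave -0.050 for Jak1 and -0.14 for Nppb, satellite glia scaling 0.79 for Sst and 0.53 for Nts, and the fit without the 3 libraries -0.23 for Nppb. With a library left out the male values ran from -0.23 to 0.23 for Nppb, -0.79 to 0.11 for Sst and -1.21 to 0.89 for Nts. The interaction of Osmr was 0.21 without the 3 libraries and -0.29 to 0.26 with a library left out. The cause was not tested. Counts of Nppb and Sst as low as 18 and 6 limit these genes, and intervals in males rest on 2 sham libraries. Scaling to the lists within sexes, removal of the 3 libraries there and the sex differences within arms were added after the data had been seen.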
